A study of Mus musculus with 26 samples.

Results

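The 9 myelin structural protein genes Mbp, Mag, Mog, Mobp, Cnp, Opalin, Ermn, Cldn11 and Mal were followed across 26 libraries of mouse whole-brain RNA. They were chosen by name, as the rows of the count table whose Ensembl identifiers carry these symbols, and make up 9 of its 27502 rows. All 9 were found. The study counted RNA from sorted oligodendrocyte, astrocyte and neuron nuclei, from presort nuclei, which are the unsorted starting mixture, and from cytoplasm. Sorted and presort oligodendrocyte-line nuclei came from B6.FVB congenic mice with Tg(Cnp-EGfp/Rpl10a)JD368Htz, astrocyte-line nuclei from such mice with Tg(Aldh1L1-EGfp/Rpl10a)JD130Htz and neuron-line nuclei from mice with Tg(Snap25-EGfp/Rpl10a)JD362Htz. Each of these 6 groups had 2 female and 2 male libraries, and per the design text the replicates of a group are different mice. Presort RNA came from each mouse, so a presort and a sorted library of a line may share a mouse. No label ties them, and the main tests treated them as independent. The 2 cytoplasmic libraries came from 1 male of the astrocyte line and 1 female of the oligodendrocyte line. All mice were 6 to 12 weeks old, and every one, controls included, carried a transgene for Rpl10a, a ribosomal protein, fused to green fluorescent protein (GFP). A sorted type is defined by the gene that drives this transgene, so Cnp, the driver of the oligodendrocyte line, is both a member and the basis of that sort.

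Myelin is the stack of membrane that oligodendrocytes wrap around axons in the brain. Mbp holds the cytoplasmic faces of the membrane together, Mobp is a further small basic protein of compact myelin, Cldn11 forms the tight junctions between its layers and Mal is a lipid-raft proteolipid. Mag sits on the innermost membrane facing the axon, Mog on the outermost surface, Cnp keeps cytoplasmic channels in the sheath open, Opalin is an oligodendrocyte membrane glycoprotein and Ermn is a cytoskeletal protein of the mature cell. Mbp mRNA is known to be carried into the processes and translated there, and the same gene also gives golli transcripts from an upstream start. In brain these genes are markers of oligodendrocytes that have left the precursor state.

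Sorted libraries held 134357 to 3239445 counts (median 2485416.5) and presort libraries 147826 to 3274488 (median 260451). The cytoplasmic libraries held 4461568 (replicate 1) and 3885312 (replicate 2). Most sorted libraries were thus far deeper than most presort libraries, a difference that every comparison of sorted with presort nuclei carries. Levels are given in CPM, the count divided by the library total and multiplied by 1000000, and 3 counts corresponded to 0.672 to 22.3 CPM. In 3 libraries depth or detection stood apart. Sorted oligodendrocyte replicate 36 had 7674 genes detected, against 16223 to 16575 in the other sorted oligodendrocyte libraries, and 0 GFP counts. Those others had 79 to 155 GFP counts in totals of 2097653 to 2932766. Presort libraries of that line had 15 to 25 in 219714 to 313720, so GFP per total count was lower after this sort, for a reason that was not tested. Sorted neuron libraries had 929 to 1387 GFP counts and sorted astrocyte libraries 44 to 1986. Sorted astrocyte replicate 30 had the lowest total, 134357 counts, and presort astrocyte-line replicate 29 the highest of the presort libraries. Marker levels went with the labels. Summed over 10 markers each, astrocyte markers reached 39.3 to 507 CPM in sorted oligodendrocyte, 8307 to 10949.5 CPM in sorted astrocyte and 217 to 338 CPM in sorted neuron nuclei, and neuron markers 517 to 1370.5 CPM, 406 to 833.5 CPM and 10127 to 15526 CPM in the same order. In bulk RNA, fewer cells of a type and less RNA per cell cannot be told apart.

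The promoters of 3 members are shown because these genes rose together in sorted oligodendrocyte nuclei and because each holds the sequence core of Sox-family factors and those of Mag and Cnp also that of Myrf, factors whose genes are described further on. Each is the 250 bases upstream of the RefSeq start site, 5′ to 3′ on the strand of the gene (GRCm38.p6), with matches in capitals. The windows are those of Mobp at chr9:120149492-120149741 on the plus strand, Mag at chr7:30914864-30915113 on the minus strand and Cnp at chr11:100574689-100574938 on the plus strand.
Mobp: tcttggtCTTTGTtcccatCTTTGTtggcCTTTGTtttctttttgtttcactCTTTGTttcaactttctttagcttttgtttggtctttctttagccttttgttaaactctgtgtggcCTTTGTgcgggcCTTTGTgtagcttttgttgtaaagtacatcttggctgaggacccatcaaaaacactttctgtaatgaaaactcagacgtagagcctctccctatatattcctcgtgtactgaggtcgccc
Mag: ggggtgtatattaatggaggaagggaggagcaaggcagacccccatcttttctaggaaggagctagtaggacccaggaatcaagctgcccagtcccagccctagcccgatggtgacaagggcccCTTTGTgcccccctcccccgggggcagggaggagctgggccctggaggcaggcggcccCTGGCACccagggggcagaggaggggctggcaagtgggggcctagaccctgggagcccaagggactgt
Cnp: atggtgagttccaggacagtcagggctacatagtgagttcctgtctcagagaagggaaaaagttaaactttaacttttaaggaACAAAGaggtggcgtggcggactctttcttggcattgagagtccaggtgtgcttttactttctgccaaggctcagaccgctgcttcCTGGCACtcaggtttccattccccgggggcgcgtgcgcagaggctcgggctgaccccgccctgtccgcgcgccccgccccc
The motifs searched, on both strands, were ACAAAG (a Sox core, which reads CTTTGT where it lies on the other strand) and CTGGCAC or CTGGTAC (Myrf), which do not overlap here. They were picked from known factors after counts and promoters had been seen, so the shares that follow are descriptions and no test. Of the 8 members with a RefSeq promoter, 4 held ACAAAG (Mobp, Mag, Cnp and Opalin) and 3 a Myrf motif (Mag, Mog and Cnp), against 16.5% and 5.93% of 32851 promoter windows. Ermn, Cldn11 and Mal held neither, although they rose in sorted oligodendrocyte nuclei as well. Mobp held ACAAAG 6 times, all in the opposite orientation to the gene and between 243 and 115 bases upstream of its start, and it is the 1 window of the 32851 with at least 6. A match describes letters and is no evidence of binding.

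All 9 genes were higher in sorted oligodendrocyte nuclei than in sorted astrocyte or sorted neuron nuclei. Their counts together made up 1.73% to 3.07% of a sorted oligodendrocyte library, against 0.101% to 0.189% of a sorted astrocyte and 0.119% to 0.159% of a sorted neuron library. With edgeR's quasi-likelihood test, adjusted by the Benjamini-Hochberg method over all 13029 genes tested, 9 of 9 rose against astrocytes, where 7.49% of all genes rose and 9.62% fell, and 9 of 9 against neurons, where 12.4% rose and 10.7% fell. The lowest oligodendrocyte library exceeded the highest of the other type for 9 of 9 members in both comparisons, against 21.9% and 32.2% of all genes whose groups did not overlap in the comparison with astrocytes and with neurons. The median log2 fold change of the members was 6.19 over astrocytes and 6.61 over neurons, beside −0.11 and −0.16 for all genes tested.

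Mbp (chr18:82475146-82585637, plus strand, GENCODE M21 on GRCm38) had the highest level, also per length of exon. It had 17877, 20661, 8842 and 12288 CPM in sorted oligodendrocyte replicates 10, 12, 34 and 36, against 871, 1337, 1637 and 863 CPM in sorted astrocytes and 1163, 1426, 1051 and 1406 CPM in sorted neurons. The oligodendrocyte libraries varied widely among themselves but stood clear of the others, and the astrocyte and neuron libraries were intermingled. Its log2 fold change was 3.94 over astrocytes (SE 0.33, edgeR adjusted p = 9.39e-07) and 3.98 over neurons (SE 0.33, adjusted p = 5.75e-07), the smallest of the 9 in both comparisons. The other genes of compact myelin followed with larger ratios. Mobp (chr9:120149707-120181484, plus strand) had 2868, 4445, 1403 and 1277 CPM in sorted oligodendrocytes, against 31.97, 41.8, 37.2 and 44.5 CPM in sorted astrocytes and 12.4, 34.2, 27.4 and 14.9 CPM in sorted neurons. Both male oligodendrocyte libraries lay above both female ones. Mobp changed by 6.19 over astrocytes (SE 0.50, edgeR adjusted p = 7.40e-07) and by 7.20 over neurons (SE 0.52, adjusted p = 1.77e-07) on the log2 scale. Mal (chr2:127633226-127656695, minus strand) had 1944, 1239, 2672 and 2427 CPM in sorted oligodendrocytes, against 16.7 to 59.5 CPM in sorted astrocytes and 21.5 to 40.3 CPM in sorted neurons, with log2 fold changes of 6.24 and 6.67. Cldn11 (chr3:31149920-31164324, plus strand) had 703, 553, 836 and 325 CPM in sorted oligodendrocytes, against 11.9 to 22.3 CPM in sorted astrocytes and 5.34 to 15.1 CPM in sorted neurons, with log2 fold changes of 5.60 and 6.50.

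Among the proteins of the inner, outer and cytoplasm-bearing membrane, Mag (chr7:30899176-30914873, minus strand) had the largest ratio to neurons. It had 1013, 952, 812 and 593 CPM in sorted oligodendrocytes, against 9.38, 9.37, 14.9 and 9.26 CPM in sorted astrocytes and 7.16, 7.10, 3.32 and 2.67 CPM in sorted neurons. The sorted astrocyte libraries all lay above the sorted neuron libraries, although the 14.9 CPM of replicate 30 rests on 2 counts. The log2 fold change was 6.61 over astrocytes (SE 0.46, edgeR adjusted p = 3.45e-07) and 7.75 over neurons (SE 0.48, adjusted p = 9.51e-08). Mog (chr17:37010743-37023398, minus strand) averaged 439.6 ± 120 CPM in sorted oligodendrocytes, 3.54 ± 2.72 CPM in sorted astrocytes and 5.82 ± 2.08 CPM in sorted neurons (SD, n = 4 each), with 0 counts in sorted astrocyte replicate 30, where 3 counts would be 22.3 CPM. Opalin (chr19:41061710-41077113, minus strand) averaged 287 ± 109, 2.80 ± 3.26 and 2.02 ± 2.05 CPM in the same order. These were the lowest levels in the other types, from 1 to 13 counts a library for Opalin, so its log2 fold changes of 7.73 over astrocytes (SE 0.85) and 7.44 over neurons (SE 0.78) had the largest standard errors of the 9. Cnp (chr11:100574904-100591729, plus strand) had 2144, 1856, 1482 and 642 CPM in sorted oligodendrocytes, against 61.4, 69.9, 89.3 and 58.0 CPM in sorted astrocytes and 50.9, 74.3, 40.7 and 34.7 CPM in sorted neurons. Replicate 36, which had no GFP counts, was the lowest for Cnp, for Mag, for Mog, for Mobp, for Opalin and for Cldn11, and still far above every library of the other types. Ermn (chr2:58045113-58052864, minus strand) had 221, 166, 515 and 184 CPM in sorted oligodendrocytes, against 3.70 to 22.3 CPM in sorted astrocytes and 2.64 to 9.96 CPM in sorted neurons. Replicate 34 was high for Ermn, and the other 3 lay close together. The library kit keeps no strand, and Cnp overlaps Dnajc7 and Ermn overlaps Galnt5 on the opposite strand, so reads of these pairs cannot be told apart where they overlap. Over all 26 libraries Dnajc7 had 3232 and Galnt5 1409 counts.

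Without replicate 36 the 9 log2 fold changes ran from 3.91 to 7.96 over astrocytes and from 3.95 to 7.78 over neurons, and without sorted astrocyte replicate 30 from 4.09 to 7.95 over astrocytes. All 9 stayed past the threshold in both. With females alone, Opalin (edgeR adjusted p = 0.107 over astrocytes and 0.0753 over neurons) and Ermn (0.0823 and 0.0509) did not pass.

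**Figure D1:**
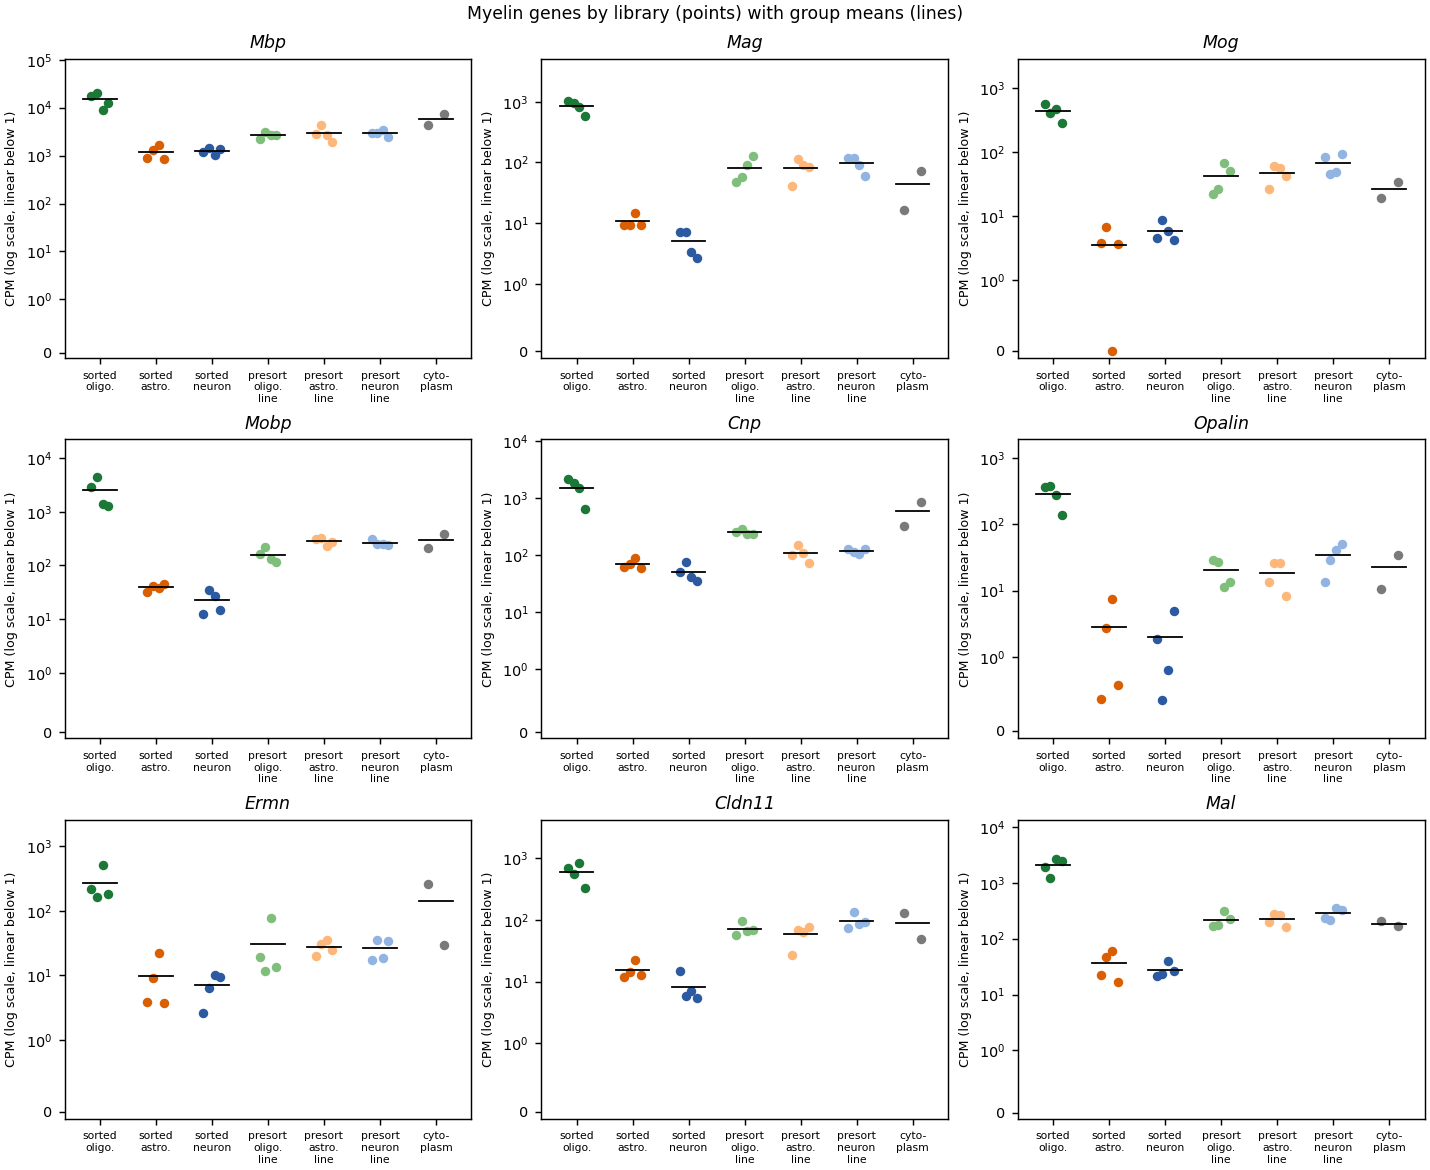
Level of each gene in CPM (logarithmic vertical axis, linear below 1) in each library (points), with the group mean (line), for sorted oligodendrocyte, astrocyte and neuron nuclei, presort nuclei of the 3 lines and cytoplasm. In every panel the 4 sorted oligodendrocyte libraries lie above all others, except that cytoplasm replicate 1 (256 CPM) lies above 3 of them for Ermn and cytoplasm replicate 2 (866 CPM) above replicate 36 (642 CPM) for Cnp.

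**Figure D2:**
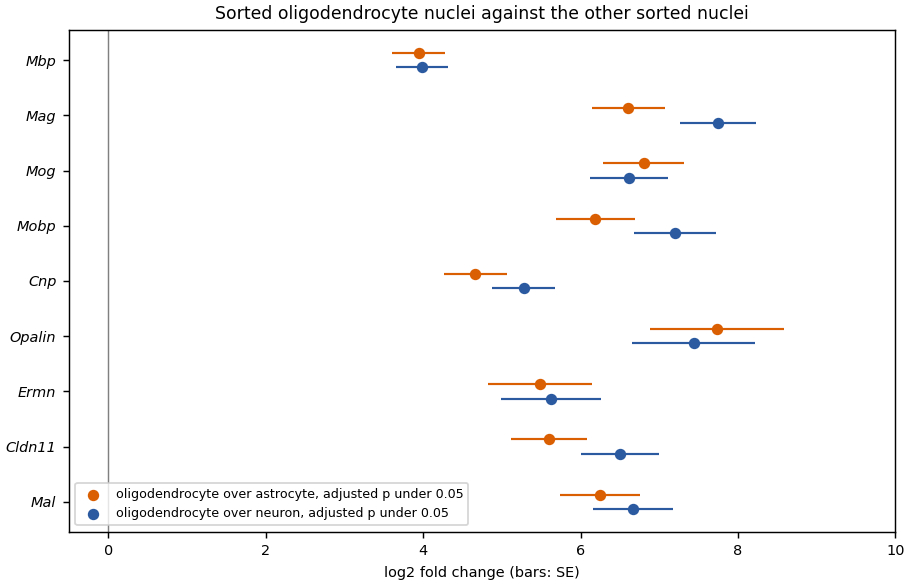
Log2 fold change of each gene in sorted oligodendrocyte nuclei over sorted astrocyte nuclei (orange) and over sorted neuron nuclei (blue), with bars of 1 standard error. All points are past an adjusted p of 0.05, and Mbp has the smallest value in both comparisons, 3.94 and 3.98.

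Divided by the length of the gene's exons, the levels of sorted oligodendrocyte nuclei ran in the order Mbp (1761 CPM per kb of exon), Mal (745), Cnp (421), Mobp (365), Cldn11 (323), Mog (258), Mag (207), Opalin (97.4) and Ermn (74.7). This length joins the exons of all GENCODE M21 transcripts of a gene, 16 for Mbp and 1 each for Cldn11 and Ermn. It may not match the regions that were counted, which are not given. The range of Mbp over the libraries did not overlap that of Mal, nor that of Mag that of Opalin, while every other pair of neighbours overlapped. Compared within each library, however, Cldn11 always lay above Mog and Mog above Mag. In sorted astrocytes and neurons Mbp was again first, at 139 and 149 CPM per kb, with Cnp second at 19.1 and 13.8. In cytoplasm Mbp had 697 and Cnp 163 CPM per kb, Mal followed with 67.2, and Ermn stood sixth with 39.3, the mean of 70.5 in replicate 1 and 8.14 in replicate 2. In presort nuclei, taken over the 12 libraries, Mbp had 339.9, Mal 87.3 and Cnp 43.7 CPM per kb and Ermn was last with 7.74.

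The levels in sorted astrocytes and neurons were not the same fraction of the oligodendrocyte level for each gene. In sorted astrocytes, Mbp had 7.89%, Cnp 4.55%, Ermn 3.58%, Cldn11 2.52%, Mal 1.76%, Mobp 1.56%, Mag 1.27%, Opalin 0.977% and Mog 0.806% of its mean CPM in sorted oligodendrocytes. In sorted neurons the values were 8.46% for Mbp, 3.27% for Cnp, 2.61% for Ermn, 1.38% for Cldn11, 1.35% for Mal, 1.32% for Mog, 0.890% for Mobp, 0.705% for Opalin and 0.600% for Mag. Mbp and Cnp came first in both types. Ermn followed in both, but in astrocytes this rested on replicate 30, with 3 Ermn counts, without which Ermn had 2.03% and Cldn11 2.13%. The ratio of mean CPM in cytoplasm to mean CPM in presort nuclei was 5.08 for Ermn, 3.73 for Cnp and 2.05 for Mbp, where Mag and Mog had 0.518 and 0.516. The Ermn ratio rested on cytoplasm replicate 1, without which it was 1.05, below 5.44 for Cnp, 2.58 for Mbp and 1.66 for Mobp. Without cytoplasm replicate 2 it was 9.12, Cnp had 2.02, Mbp 1.53 and Cldn11 1.70. The low end moved as well. Without cytoplasm replicate 1 Cldn11 had the lowest ratio, 0.636, with 0.663 for Mog, 0.683 for Mal and 0.844 for Mag. Across the 9 genes, the log2 fraction and the log2 ratio had a Pearson correlation of 0.783 (Spearman 0.817) in astrocytes and 0.673 (Spearman 0.70) in neurons. Without cytoplasm replicate 1 these were 0.60 (Spearman 0.483) and 0.541 (Spearman 0.333), and in astrocytes without replicate 30 they were 0.613 (Spearman 0.75). This describes 9 genes measured in the same libraries, which are not independent points, and a part of cytoplasmic RNA in these levels was not tested.

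**Figure D3:**
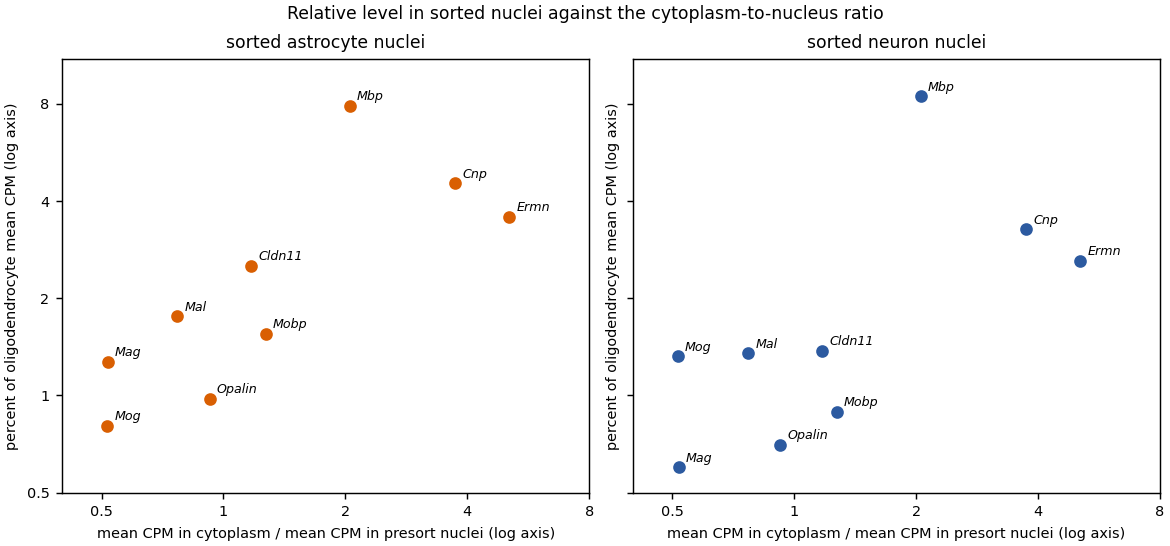
Mean CPM in sorted astrocyte nuclei (left) and sorted neuron nuclei (right) as a percentage of the sorted oligodendrocyte mean, against the ratio of the cytoplasmic to the presort nuclear mean, each point 1 gene and both axes logarithmic. Mbp, Cnp and Ermn lie at the upper right in both panels, although the Ermn ratio of 5.08 is 1.05 without cytoplasm replicate 1. Mag and Mog have the smallest ratios of these means, but without that library Cldn11 has the smallest, 0.636, and Mag has 0.844.

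Between sorted astrocytes and sorted neurons, 0 of 9 members passed with edgeR and 0 with DESeq2, against 11.4% of all genes higher and 8.02% lower in astrocytes. At an unadjusted p under 0.05 there were 2 of 9, Mag and Mobp, against 28.8% of all genes, and 1 of 9, Mag, did not overlap, against 35.1%. The Mag values given above yielded a log2 difference of 1.14 (SE 0.40, edgeR adjusted p = 0.0584), and those of Mobp 1.01 (SE 0.41, adjusted p = 0.108). The 7 others ranged from −0.30 for Opalin to 0.90 for Cldn11. Mag passed without sorted oligodendrocyte replicate 36, which changes the shared spread (adjusted p = 0.0172), without sorted neuron replicate 2 (0.0378) and with sex as a covariate (0.0404). Mobp passed without sorted oligodendrocyte replicate 36 (0.0397) and with all 24 nuclear libraries in 1 fit (0.0490), and Cldn11 without sorted neuron replicate 2 (0.0266). Precursor markers, 10 genes summed, reached 2745 to 3704 CPM in sorted astrocytes against 186 to 277 CPM in sorted neurons, and 118 to 285 CPM in sorted oligodendrocytes. Several of these genes, such as Ptprz1 and Sox6, are also active in astrocytes, and a part of precursor cells in the Mag and Mobp values was not tested.

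Sorting raised the 9 genes in the oligodendrocyte line and lowered most of them in the other lines. In the oligodendrocyte line 9 of 9 were higher in sorted than in presort nuclei, with 9 of 9 not overlapping, against 5.12% of all genes higher, 3.24% lower and 25.7% not overlapping (487 higher and 308 lower, or 593 and 1128 with DESeq2). Mbp had 8842 to 20661 CPM in sorted nuclei, against 2247, 3052, 2746 and 2672 CPM in presort replicates 9, 11, 33 and 35, and its log2 fold change was 3.05 (SE 0.38, edgeR adjusted p = 0.00159). Mobp had the largest, 4.47 (SE 0.48, adjusted p = 0.0013), with 1277 to 4445 CPM in sorted nuclei, against 163, 219, 134 and 118 CPM in presort nuclei. The median of the members was 3.89, beside −0.07 for all genes, or −0.57 with DESeq2. The smallest were those of Mbp and of Cnp, 3.06 (SE 0.37, adjusted p = 0.00136). Without sorted replicate 36 the range was 2.93 to 4.56. Males alone also gave 9 of 9, and females alone, where replicate 36 is 1 of 2 sorted libraries, gave 0 of 9 and 0 of all genes tested (694 at an unadjusted p under 0.05).

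In the neuron line 9 of 9 members were lower in sorted than in presort nuclei, with 9 of 9 not overlapping, against 5.1% of all genes lower, 1.27% higher and 13.4% not overlapping. Leaving out any 1 library left 6 or 7 members past the threshold. Cnp then passed in 2 of 8 fits, Ermn in 0 of the 4 in which it reached the count filter and Opalin in 4 of 4, while the other 6 passed in all 8. With libraries of consecutive numbers taken as pairs, a choice made after seeing the data, 9 of 9 passed and 1450 of all genes, against 702 without pairs. Mag fell the most. It averaged 5.06 ± 2.40 CPM in sorted and 96.8 ± 27.99 CPM in presort nuclei (SD, n = 4 each), a log2 fold change of −4.12 with edgeR. Mbp, with 1051 to 1426 CPM in sorted nuclei, against 3009, 3033, 3386 and 2460 CPM in presort replicates 1, 3, 25 and 27, fell least together with Cnp, both by 1.12 on the log2 scale (edgeR adjusted p = 0.00211 for Mbp and 0.029 for Cnp). Ermn changed by −1.76 (SE 0.50, adjusted p = 0.0489). In the astrocyte line 8 of 9 were lower in sorted nuclei and 7 of 9 did not overlap, against 15.2% of all genes lower, 13.7% higher and 28.1% not overlapping. Opalin had a log2 fold change of −3.58, Mog of −3.17, Mag of −2.87, Mal of −2.63, Mobp of −2.59, Ermn of −1.99, Cldn11 of −1.93 and Mbp of −1.14. The exception was Cnp. It had 61.4, 69.9, 89.3 and 58.0 CPM in sorted and 101, 152, 108 and 71.3 CPM in presort replicates 5, 7, 29 and 31, groups that overlap, and its change of −0.46 (SE 0.30, edgeR adjusted p = 0.289) did not pass. Leaving out presort replicate 29, the deepest library of this group, left 4 of the 9 members above the count filter, of which 3 passed, and leaving out both replicate 29 and sorted replicate 30, a choice made after seeing the data, gave 8. The difference between lines was tested directly, with presort and sorted libraries treated as independent although they may share mice. The sorted-minus-presort change was higher in the oligodendrocyte line than in the astrocyte line for 9 of 9 members, against 7.01% of all genes (853 higher and 780 lower, or 788 and 1138 with DESeq2), with log2 differences from 3.57 (Cnp) to 7.82 (Opalin), and higher than in the neuron line for 9 of 9, against 8.81%, with differences from 4.21 (Mbp) to 8.16 (Opalin).

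Before the sort, no member passed between lines with edgeR, and the smallest p was that of Cnp. It had 255, 285, 234 and 232 CPM in presort nuclei of the oligodendrocyte line, against 101, 152, 108 and 71.3 CPM in the astrocyte line and 126, 114, 102 and 128 CPM in the neuron line. The oligodendrocyte-line libraries all lay above the other 8 and those of the other lines overlapped. In a joint test among the 3 lines, 0 of the 7 members tested passed with edgeR, against 0% of 6049 genes (3.39% at an unadjusted p under 0.05). Cnp had an unadjusted p of 4.36e-05 and an adjusted p of 0.143 with edgeR and was the 1 member DESeq2 called (adjusted p = 0.000246). In pairwise tests added after seeing the data, its log2 difference was 1.26 from the astrocyte line (SE 0.25, edgeR adjusted p = 0.325) and 1.15 from the neuron line (SE 0.25, adjusted p = 0.309). This line carries a transgene driven by Cnp sequence, and whether reads from the transgene enter the Cnp counts was not tested. Mobp was next, with an unadjusted edgeR p of 0.0106 and an adjusted p of 0.999. Its presort level was 118 to 219 CPM in the oligodendrocyte line, below the 232 to 321 CPM of the astrocyte line and the 239 to 317 CPM of the neuron line.

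Against cytoplasm, presort nuclei held less of 4 of the 9 members and differed in none in the other direction, where 29.8% of all 7728 genes tested were lower and 20.6% higher. Their median log2 fold change was −0.87, beside −0.10 for all genes, or 0.25 with DESeq2. The 4 were Ermn, Cnp, Mbp and Mobp. Cnp had 71.3 to 285 CPM (median 127) in the 12 presort libraries, against 321 and 866 CPM in cytoplasm replicates 1 and 2. It was the 1 of 9 members whose groups did not overlap, against 32.5% of all genes, and its log2 fold change was −2.41 (SE 0.36, edgeR adjusted p = 1.28e-05). Mbp had 1921 to 4426 CPM (median 2807) in presort nuclei, against 4398 and 7416 CPM in cytoplasm, so 1 presort library lay above 1 cytoplasmic library, and its change was −1.59 (SE 0.23, adjusted p = 7.68e-06). Ermn had 11.5 to 76.6 CPM (median 22.7) in presort nuclei, against 256 and 29.6 CPM in cytoplasm. Its change of −3.00 (SE 0.48, edgeR adjusted p = 3.03e-05) rested on cytoplasm replicate 1, without which it was −0.39 (adjusted p = 0.595). Mobp, with 118 to 321 CPM in presort nuclei against 208 and 391 CPM in cytoplasm, changed by −0.90 (SE 0.30, adjusted p = 0.0177), and by −0.52 (adjusted p = 0.24) without cytoplasm replicate 2.

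The other 5 members did not pass. Mag had 40.6 to 127 CPM in presort nuclei, against 16.6 and 73.1 CPM in cytoplasm, with a log2 fold change of 0.46 (SE 0.43, edgeR adjusted p = 0.388), and it passed without cytoplasm replicate 2 (1.70, adjusted p = 0.00842). Mog had 22.3 to 93.8 CPM against 19.3 and 34.7 CPM, with a log2 fold change of 0.42 (SE 0.42, adjusted p = 0.424). Opalin, at 24.2 ± 12.9 CPM in presort nuclei and 22.4 ± 16.4 CPM in cytoplasm, and Mal, at 243 ± 65.1 CPM and 187 ± 29.7 CPM (SD, n = 12 and 2), had log2 fold changes of −0.38 and −0.22. Cldn11 had −0.87 (SE 0.37, adjusted p = 0.0582) and passed without cytoplasm replicate 2 (−1.45, adjusted p = 0.00203). Scaling by composition (the TMM method) sets these fold changes lower than the ratio of CPM means, which for Mal and Opalin has the opposite sign. The cytoplasmic libraries differed from each other, with mitochondrially encoded mRNAs summing to 58865 CPM in replicate 1 and 5169 CPM in replicate 2, against 558 to 3799 CPM in presort nuclei, and neuron markers to 13520 and 6389 CPM. They came from mice of different lines and sexes, which cannot be told apart with 1 library each. When 1 of them is left out, the lone library is assumed to vary like the presort ones.

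**Figure D4:**
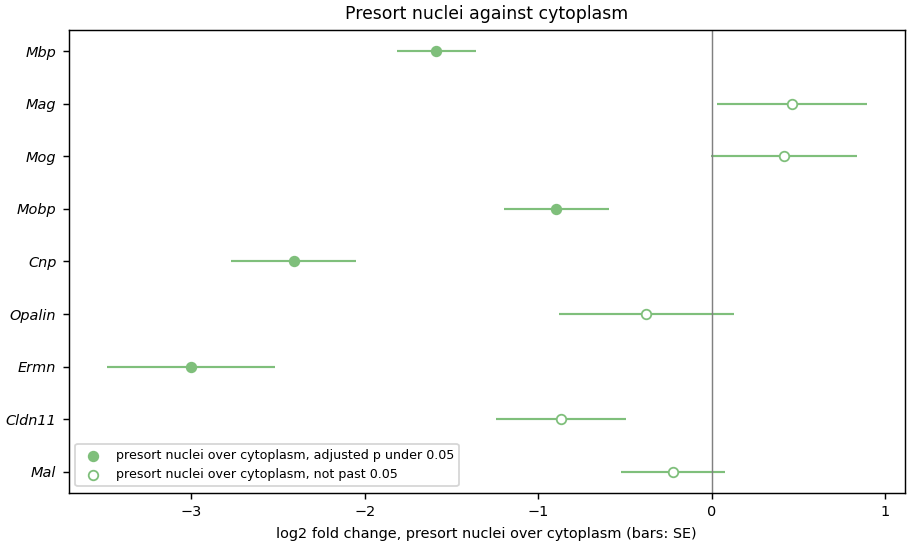
Log2 fold change of each gene in presort nuclei over cytoplasm, with bars of 1 standard error; filled points are past an adjusted p of 0.05. Ermn, Cnp, Mbp and Mobp lie to the left of 0 and pass, while Mag and Mog lie to the right and do not.

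The make-up of the myelin gene counts, which does not depend on library size, was compared as well. Mbp took 62.7% ± 7.85 of the counts of the 9 genes in sorted oligodendrocytes, 86.1% ± 0.776 in sorted astrocytes and 90.6% ± 1.94 in sorted neurons (SD, n = 4 each). Within the oligodendrocyte line the Mbp share was 62.7% ± 7.85 in sorted and 75.4% ± 1.62 in presort nuclei, and the Mobp share 9.99% ± 3.31 and 4.48% ± 1.16 (exact two-sided permutation p = 0.0286 for each, unadjusted, the smallest that 70 arrangements give). The other 7 shares did not pass. The Mobp share lost its call in 5 of 10 alternatives and the Mbp share in 0 of 9. Against cytoplasm, presort nuclei had more of their myelin counts in Mag, 2.31% ± 0.767 against 0.552% ± 0.360 (SD, n = 12 and 2, exact permutation p = 0.011, the smallest of 91 arrangements), in Mal, 6.45% ± 1.52 against 2.78% ± 1.34 (exact p = 0.011), and in Mog, 1.40% ± 0.607 against 0.365% ± 0.0264 (exact p = 0.033). The Mbp share was 75.8% ± 2.89 in presort nuclei and 80.4% ± 2.03 in cytoplasm (exact p = 0.0549). Against cytoplasm the Mog share lost its call in 7 of 16 alternatives, and those of Mag and Mal in 2 each. The 9 shares add to a whole and are not independent of each other, and no p-value here is adjusted for testing 9 of them. With 1 cytoplasmic library left out, no share can pass, since 1 against 12 allows too few arrangements.

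**Figure D5:**
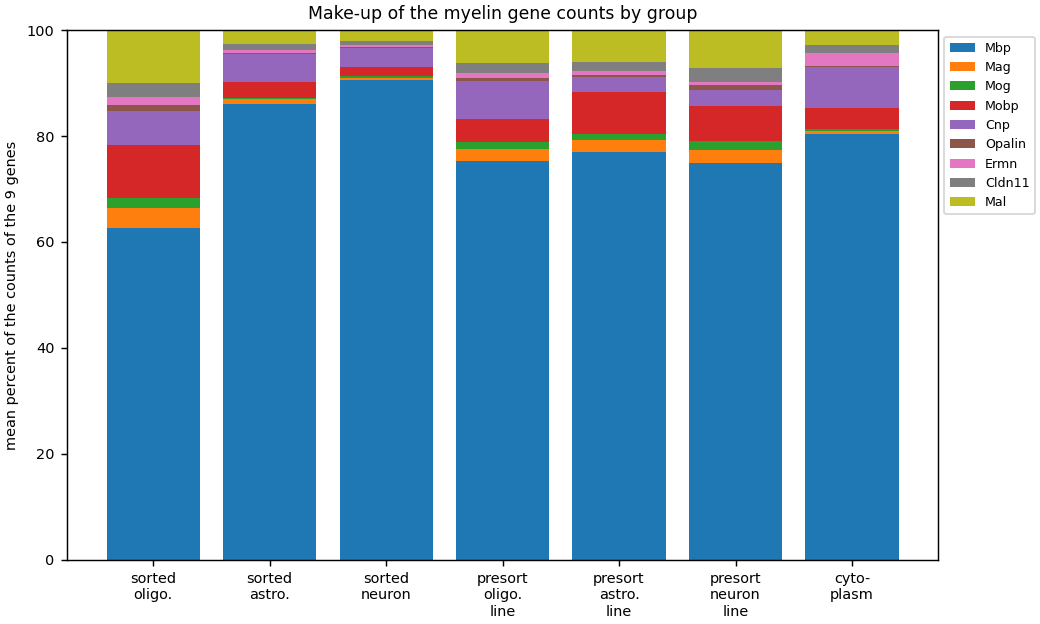
Mean percentage of the counts of the 9 genes taken by each gene (stacked colours, vertical axis 0 to 100) in each of the 7 groups. Mbp takes the largest part in every group, from 62.7% in sorted oligodendrocyte nuclei to 90.6% in sorted neuron nuclei, and Mal, Mobp and Cnp fill most of the rest.

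Sex, which coincides with the block of replicate numbers, gave no call among the members. Few of all genes were called either. In sorted nuclei 0 of 9 passed between females and males with edgeR and 0 with DESeq2, against 0.0461% of all genes, and 0 of 9 had an unadjusted p under 0.05, against 4.83%. The largest log2 difference was 0.85 for Ermn (SE 0.42, edgeR adjusted p = 0.876). In presort nuclei 0 of the 7 members tested passed with either tool, against 0.959% of all genes, and 1, Mobp, had an unadjusted p under 0.05 (0.0417), against 13.2%. A test within sorted oligodendrocytes alone was added after seeing the data. Mobp had 1403 and 1277 CPM in females there and 2868 and 4445 CPM in males. Its log2 difference was −1.17 (edgeR unadjusted p = 0.0404, adjusted p = 0.554). Both male libraries also lay above both female ones for Mbp, Mag, Cnp and Opalin, and below them for Mal. Female replicate 36 is the library with few genes detected, and how many of all genes separate in this way was not tested. Opalin and Ermn did not reach the count filter in the fits of presort nuclei alone.

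Other genes of the pathway moved with the members in the sorted nuclei. Over all genes 12.4% rose and 10.7% fell against neurons, and 7.49% rose and 9.62% fell against astrocytes. Against neurons, 28 of 28 tested genes of a list of other myelin and mature oligodendrocyte genes rose (median log2 fold change 5.45), as did 7 of 10 for myelin lipid synthesis and 10 of 10 transcription factors of the lineage. Ugt8a, which makes galactosylceramide, rose by 6.85 (SE 0.50, edgeR adjusted p = 1.77e-07) and Myrf, a transcription factor required for myelin gene expression, by 7.15 (SE 0.69, adjusted p = 2.6e-06). Sox10, a lineage factor, rose by 6.81, and Fa2h, which hydroxylates sphingolipid fatty acids, by 7.03. Against astrocytes, 26 of 28, 6 of 10 and 6 of 10 rose in the same lists, and 1 gene of lipid synthesis fell. Precursor markers did not move together. Of 9 tested, 2 rose and 1 fell against neurons, and 1 rose and 3 fell against astrocytes, among them Gpr17, a receptor of cells about to mature, which rose by 3.40 and by 3.90, and Ptprz1, a phosphatase, which fell by 4.91 against astrocytes. Of 5 tested endothelial genes 4 rose against neurons and 0 against astrocytes. Their sum was 0 to 119.7 CPM in sorted oligodendrocytes, and their part in the member values was not tested. No gene of the Schwann cell list, the myelinating cells of peripheral nerve, reached the count filter, and the sum of its 4 genes was at most 9.69 CPM in sorted oligodendrocytes.

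Against presort nuclei of the oligodendrocyte line, 25 of 30 other myelin genes, 6 of 9 lipid genes and 7 of 10 transcription factors rose, while 3 of 7 precursor markers fell. In the neuron line 19 of 26, 6 of 9 and 4 of 8 fell, 1 transcription factor rose, and 8 of 9 precursor markers fell too. In the astrocyte line 10 of 26 other myelin genes fell and 3 rose. Of 10 lipid genes there 2 fell and 2 rose, of 7 transcription factors 3 fell and 1 rose, and of 8 precursor markers 3 fell and 3 rose. Over all genes 5.12% rose and 3.24% fell in the oligodendrocyte line, and 1.27% rose and 5.1% fell in the neuron line. In the astrocyte line 15.2% fell and 13.7% rose. Between presort nuclei and cytoplasm, 8 of 24 other myelin genes were lower in presort nuclei and 3 higher, near the 29.8% and 20.6% of all genes. Cryab, a small heat-shock protein, had a log2 fold change of −2.64 (SE 0.32, edgeR adjusted p = 1.03e-06), and Tppp, a tubulin-binding protein of oligodendrocytes, had −1.96. Tcf7l2, a transcription factor of maturing oligodendrocytes, had −3.21 (SE 0.41, adjusted p = 1.82e-06). On the other side, 6 of 7 precursor markers were higher in presort nuclei, among them Pdgfra, the platelet-derived growth factor receptor of precursors, with 3.41. Cers2, a ceramide synthase, had 2.12. All 6 endothelial genes were higher too (median log2 fold change 4.60), with sums of 94.7 to 1193 CPM in presort nuclei and 6.72 to 11.1 CPM in cytoplasm. Of 10 astrocyte markers 5 were higher and 2 lower, of 10 neuron markers 3 and 4, and of 5 microglia genes 0 and 0. Whether the 2 fractions held the same mix of cell types was not tested. Among RNAs known to stay in the nucleus 6 of 7 were higher in presort nuclei, and 10 of 10 mitochondrially encoded mRNAs were lower.

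The genes outside the list that were most like the members over the 26 libraries, among 10461 with a mean of at least 10 CPM, included Tspan2, Ugt8a, Pacs2, Myrf and Efnb3. Their log2(CPM + 1) correlated with the mean of the members with a Pearson r of 0.963 for Tspan2, 0.961 for Ugt8a, 0.949 for Pacs2, 0.948 for Myrf and 0.946 for Efnb3. Each member's own correlation with the mean of the other 8 ran from 0.972 for Mal to 0.883 for Cnp and 0.855 for Ermn. These correlations are descriptions, since the points share groups and depth.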

How the data were processed

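Raw counts of reads per Ensembl gene were deposited by the authors as 1 table of 26 libraries, without normalization. RNA was isolated with Trizol, cleared of DNA and amplified with the NuGEN Ovation V2 kit, which keeps no strand, per the labels' protocols. The submitters' processing notes name edgeR, STAR, Bowtie2, Trimmomatic and bedtools, without versions. Build, annotation and counted regions: not given in the sources used here. Counts are reads and not molecules, so depth covers counting error only. Symbols, coordinates and exon lengths came from GENCODE M21 (GRCm38), matching 26495 of 27501 identifiers, and promoters from RefSeq (GRCm38.p6).

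Tests on counts used edgeR 4.0.16 (R 4.3.3) and its quasi-likelihood method, with TMM scaling and filterByExpr (minimum count 10). P-values were two-sided and adjusted by Benjamini-Hochberg over all genes tested, with a threshold of 0.05. The 12 sorted libraries shared 1 fit, each line had its own, and the interaction used 24 libraries. Standard errors are the log2 fold change over the root of F. Shares were compared by exact permutation without adjustment, in place of the planned adjustment over the 9 genes. DESeq2 1.42.0, RLE scaling, no filter, each sex alone, sex as a covariate, pairs of consecutive numbers and leaving out each library were alternatives. Members and lists were chosen with earlier results of these data known. Genes named beside the members were the 3 with the smallest adjusted p per list and the 6 most correlated, of which 1 gene is not reported here. The tests recovered known fold changes on counts simulated from edgeR's own estimates of mean and spread. This checks the code, and not how well that model fits these libraries. No replicates were copies of each other (chi-square of at least 1.97 per degree of freedom).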

Additional observations from a re-analysis of the deposited data

Results flagged for a closer look

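Among 54 sets of 4 libraries, 9 genes in 6 groups, 4 had 1 library far from the other 3, and chance gives about 1 in 20. Ermn was 515 CPM in sorted oligodendrocyte replicate 34 and 76.6 CPM in presort oligodendrocyte-line replicate 33, the highest of its group in both. Mobp was 317 CPM in presort neuron-line replicate 1. Mag was 14.9 CPM in sorted astrocyte replicate 30, from 2 counts.

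The effect of the sort differed between lines for every member with edgeR's test of the interaction. Against the astrocyte line, the difference in the sorted-minus-presort log2 change of the oligodendrocyte line was 4.24 for Mbp, 6.80 for Mag, 7.12 for Mog, 7.15 for Mobp, 3.57 for Cnp, 7.82 for Opalin, 5.60 for Ermn, 5.50 for Cldn11 and 6.49 for Mal. Against the neuron line it was 4.21 for Mbp, 8.07 for Mag, 7.37 for Mog, 7.99 for Mobp, 4.22 for Cnp, 8.16 for Opalin, 5.46 for Ermn, 6.98 for Cldn11 and 7.13 for Mal.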

How the results depend on the processing

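Presort RNA came from each mouse per the design text, but no label ties a presort to a sorted library, and a number shared with cytoplasm belongs to another line. With consecutive numbers (presort 1 with sorted 2, and so on) as a replicate block, chosen after seeing the data, 9 members passed in the oligodendrocyte, 8 in the astrocyte and 9 in the neuron line, as without it, and 281, 2973 and 1450 of all genes. Deviations of such pairs correlated at −0.000747 to 0.174, 0.0282 to 0.132 and 0.199 to 0.324 in the same order, over 0.1 for every pair in the neuron line alone. Non-consecutive pairs gave −0.142 to 0.0448, −0.143 to 0.111 and −0.254 to 0.206. In the neuron line the highest of these, presort 25 with sorted 28, was of the same sex and lay within the range of the consecutive pairs. Sorted oligodendrocyte nuclei kept 7 to 9 of 9 members called over astrocytes and over neurons in all alternatives, and both interaction tests kept 9. With females only, 0 members passed between sorted and presort nuclei of the oligodendrocyte line. With males only, 5 passed in the astrocyte line and 5 in the neuron line, where leaving out any 1 library gave 6 or 7. Calls over all genes with males only were 1528 of 11195 and 127 of 11103, in place of 3193 and 702 in the main fits. Leaving out 1 library gave 3 to 8 in the astrocyte line and 0 to 2 between sorted astrocytes and neurons, where sex as a covariate or all 24 libraries gave 1. DESeq2 called 1 among lines. Between presort nuclei and cytoplasm 3 to 5 passed. Differences in log2 share gave 5 shares between presort nuclei and cytoplasm, and leaving out 1 library 0 to 4. Within the oligodendrocyte line, shares without Mbp gave 1, and leaving out 1 library 1 to 2.

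Signs turned only for values that had not passed. Between sorted astrocytes and neurons, Mbp was −0.021 without a filter, −0.046 with males only and −0.065 with all 24 libraries, Ermn −0.024 with all 24 and Opalin 0.60 with males only. Leaving out 1 library gave −0.11 to 0.15 for Mbp, −0.17 to 0.42 for Ermn, −1.09 to 0.59 for Opalin and −0.53 to 0.0091 for Mog. Between presort nuclei and cytoplasm it gave −0.093 to 1.70 for Mag, −1.45 to 0.31 for Cldn11, −0.47 to 0.20 for Mal and −0.81 to 0.49 for Opalin, and share differences of −3.84 to 0.435 points for Ermn and −0.279 to 1.51 for Cldn11. Within the oligodendrocyte line it gave −0.0575 to 0.893 points for Ermn and −1.36 to 0.315 for Cnp, and shares without Mbp gave −0.0113 for Ermn and −1.21 for Cldn11. The cause was not tested.

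Counts over all genes moved more. Calls in the oligodendrocyte line were 795, against 1216 without a filter, 1721 with DESeq2, 2151 with males only and 0 with females only. In the neuron line they were 702, against 1151 without a filter, 1238 with DESeq2 and 127 with males only. With females only they were 123, 67 and 46 among sorted types, in place of 3005 (oligodendrocyte and neuron), 2230 (oligodendrocyte and astrocyte) and 2534 (astrocyte and neuron). Against cytoplasm they were 3901, 6815 without a filter and 6043 with DESeq2. Presort depth limits Opalin and Ermn, with as few as 2 and 3 counts a library.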
